A study of Mus musculus with 17 samples.

Results

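Fibroblast growth factors (FGFs) and their receptors were examined in bulk RNA sequencing of mouse bone stroma. The 9 genes were chosen by name, 4 receptors (Fgfr1, Fgfr2, Fgfr3 and Fgfr4) and 5 ligands (Fgf1, Fgf2, Fgf7, Fgf9 and Fgf18), out of 55335 genes in the count files, and all 9 were measured. There were 17 libraries: 9 of osteoprogenitor cells (OPCs), 3 for each genotype, and 8 of skeletal stromal/stem cells (SSCs), 3 of WT, 3 of +/1013 and 2 of 1013/1013. WT mice carry Cxcr4+/+, +/1013 mice 1 copy and 1013/1013 mice both copies of the knock-in Cxcr4 1013 allele, a gain-of-function mutation that truncates the tail of the chemokine receptor CXCR4 as in WHIM syndrome. The mice were 8 to 12 weeks old with no treatment given in the labels, and the allele is in the germline, so it is not restricted to bone. Each library came from a sorted pool of 3000 cells of 3 mice. Both populations were sorted as CD45-, TER119-, CD31- and CD51+ cells of the bone fraction. OPCs were Sca-1- with variable PDGFRα, and SSCs were Sca-1+ and PDGFRα+. Gene positions in mm10 (GENCODE M21) are chromosome 8, 25513654 to 25575718 (+ strand) for Fgfr1, 7, 130162451 to 133123350 (-) for Fgfr2, 5, 33721674 to 33737068 (+) for Fgfr3 and 13, 55152640 to 55168759 (+) for Fgfr4. Among ligands they are chromosome 3, 37348346 to 37410108 (+) for Fgf2, 2, 126034658 to 126091185 (+) for Fgf7, 14, 58070547 to 58112720 (+) for Fgf9 and 11, 33117430 to 33147400 (-) for Fgf18.

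FGFs bind receptor tyrosine kinases on the cell surface together with heparan sulfate chains, which act as cofactors. Bound receptors pair, phosphorylate the adaptor FRS2 and switch on the RAS-MAPK cascade. This cascade raises the ETS factors Etv4 and Etv5 and the feedback inhibitors of the Sprouty and Dusp families. In bone, Fgfr1 and Fgfr2 act in mesenchymal progenitors and osteoblasts, Fgfr3 restrains growth plate chondrocytes, and Fgf9 and Fgf18 are the ligands best known to act on it. Fgfr4 is best known in liver and in myogenic progenitors. Fgf7, also called keratinocyte growth factor, is made by mesenchyme and acts on an epithelial isoform of Fgfr2. Fgf1 binds every FGF receptor, and Fgf2 is a broadly acting mitogen that lacks a classical secretion signal.

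The start regions of 4 members are shown as examples. Fgf7 and Fgf18 had higher levels in SSCs, and Fgfr3 and Fgfr4 higher levels in OPCs. The region of Fgf2, which was called between the cell types in every genotype, is not printed. Each printed window holds 250 bases before and 50 after the RefSeq transcript start in GRCm38.p6, on the gene's own strand. RefSeq windows were used for 7 of the 9 members. Capitals mark matches on either strand to the motifs searched, which were TATAAA (the core of the TATA box), GGGCGG (GC box), ACCACA (the core of a RUNX site), TGANTCA (AP-1), the CCAAT box, and TGACG (part of a cyclic AMP response element).
Fgf7 (chr2:126034408-126034707, + strand): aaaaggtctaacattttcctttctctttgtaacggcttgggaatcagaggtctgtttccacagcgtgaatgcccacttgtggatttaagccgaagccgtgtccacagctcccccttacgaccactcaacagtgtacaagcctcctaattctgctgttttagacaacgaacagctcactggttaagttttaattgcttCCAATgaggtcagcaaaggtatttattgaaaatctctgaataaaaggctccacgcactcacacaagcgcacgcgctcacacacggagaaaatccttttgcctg
Fgf18 (chr11:33147351-33147650, - strand): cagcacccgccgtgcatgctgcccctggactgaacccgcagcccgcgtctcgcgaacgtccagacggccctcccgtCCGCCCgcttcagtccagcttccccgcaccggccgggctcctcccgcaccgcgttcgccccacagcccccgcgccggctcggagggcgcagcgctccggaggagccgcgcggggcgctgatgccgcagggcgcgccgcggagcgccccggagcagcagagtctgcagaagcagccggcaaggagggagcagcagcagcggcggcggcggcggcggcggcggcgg
Fgfr3 (chr5:33721474-33721773, + strand): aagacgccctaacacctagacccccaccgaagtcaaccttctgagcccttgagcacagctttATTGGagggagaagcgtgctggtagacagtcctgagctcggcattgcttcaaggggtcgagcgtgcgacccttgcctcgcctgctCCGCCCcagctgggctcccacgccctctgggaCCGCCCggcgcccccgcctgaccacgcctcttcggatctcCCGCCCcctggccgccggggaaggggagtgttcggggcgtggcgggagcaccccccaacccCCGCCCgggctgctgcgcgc
Fgfr4 (chr13:55152568-55152867, + strand): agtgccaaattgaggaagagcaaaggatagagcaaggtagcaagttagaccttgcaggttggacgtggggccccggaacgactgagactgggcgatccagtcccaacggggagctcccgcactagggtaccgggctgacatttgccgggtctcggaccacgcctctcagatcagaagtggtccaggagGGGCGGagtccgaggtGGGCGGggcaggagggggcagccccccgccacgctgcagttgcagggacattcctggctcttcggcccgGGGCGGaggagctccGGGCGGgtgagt
The printed windows of Fgfr3 and Fgfr4 each held 4 GC boxes and that of Fgf18 held 1, a motif found in 35.7% of the 32851 windows of this length. Fgf7 had none, and its single match was a CCAAT box, as in 37.4% of windows. The printed Fgfr3 window also held 1 CCAAT box. Another RefSeq window of Fgfr3 (chr5:33722056-33722355), not shown, held 2 GC boxes and no CCAAT box at a GC content of 73%. No printed window matched the TATA box (13.6% of windows), the RUNX core (16.8%), the AP-1 letters (7.81%) or the TGACG letters (20.8%). In the printed windows GC content was 78.7% for Fgf18, 69.7% for Fgfr3, 65.3% for Fgfr4 and 45.7% for Fgf7, against a median of 52.7% over all windows. The Fgf2 window, not shown, held 1 GC box and 2 TGACG matches at a GC content of 62.7%, so GC boxes occurred beside genes higher in OPCs and genes higher in SSCs alike.

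OPC libraries held 64099849 to 92683497 counts on genes and SSC libraries 44217695 to 50509592, so 3 counts, taken as the detection floor, correspond to 0.0324 to 0.0468 and 0.0594 to 0.0679 CPM (counts scaled to the library's total). Sca-1 (Ly6a) read 0.568 to 6.67 CPM in WT OPCs and 390 to 603 CPM in WT SSCs, and the summed level of 6 osteoblast markers 200113 to 301793 and 8203 to 12224 CPM. Of the other gate markers, Pdgfra read 90.5 to 127 CPM in WT OPCs and 342 to 419 CPM in WT SSCs. Itgav, which encodes CD51, read 27.8 to 66.8 and 50 to 60.1 CPM. Sca-1 and PDGFRα transcripts thus differed in the direction of the gates. Ptprc, which encodes the excluded CD45, still read 2.32 to 52.4 CPM in WT OPCs and 1.27 to 120 CPM in WT SSCs. It reached 118 CPM in 1013/1013 OPCs. The leukocyte list of 10 markers summed to 9577 CPM in WT OPC replicate 3, 9140 CPM in 1013/1013 OPC replicate 2 and 3237 CPM in WT SSC replicate 3, against 37.1 to 843 CPM in the other 14 libraries. 1013/1013 SSC replicate 1 had counts on 15748 genes, against 17808 to 22599 in the other SSC libraries. The osteoblast list summed to 1923 to 3630 CPM in +/1013 and 1962 to 4499 CPM in 1013/1013 SSCs, below every WT SSC library.

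Levels are CPM scaled by the trimmed mean of M-values (TMM) over all 17 libraries, and a gene's libraries are given in replicate order. Fgfr1 had the highest CPM of the 4 receptors in SSCs. In OPCs it read 491, 408 and 320 CPM in WT, 449, 476 and 376 CPM in +/1013 and 247, 363 and 266 CPM in 1013/1013. In SSCs it read 247, 376 and 192 CPM in WT, 128, 96.4 and 194 CPM in +/1013 and 178 and 156 CPM in 1013/1013. WT OPCs and WT SSCs overlapped, while each mutant SSC library lay below every OPC library of its genotype. Fgfr2 differed least between the cell types among the receptors in WT. Its OPC means were 68.4 ± 26.1 (SD, n = 3) in WT, 81.7 ± 7.5 in +/1013 and 61.8 ± 15.4 CPM in 1013/1013. In SSCs it read 84.5, 125 and 74.5 CPM in WT, 29.4, 52.0 and 46.9 CPM in +/1013 and 19.8 and 68.8 CPM in 1013/1013. All 5 mutant SSC libraries lay below the 3 WT SSC libraries.

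Fgfr3 and Fgfr4 lay furthest apart between the cell types among the receptors and also varied most within a group. Fgfr3 read 191, 166 and 59.8 CPM in WT OPCs, 78.4, 147 and 301 CPM in +/1013 OPCs and 439, 122 and 404 CPM in 1013/1013 OPCs. It read 41.3, 43.7 and 23.6 CPM in WT SSCs, 4.34, 14.8 and 9.79 CPM in +/1013 SSCs and 0.073 (4 counts) and 13.0 CPM in 1013/1013 SSCs. Every OPC library was thus above every SSC library. Fgfr4 read 494, 179 and 29.5 CPM in WT OPCs, 623, 162 and 116 CPM in +/1013 and 206, 101 and 88.7 CPM in 1013/1013. In SSCs it read 2.54, 5.19 and 0 CPM in WT, 0, 0.479 and 0.263 CPM in +/1013 and 0 and 0.856 CPM in 1013/1013. Again no SSC library reached the lowest OPC library, but WT OPCs alone spanned 29.5 to 494 CPM.

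**Figure D1:**
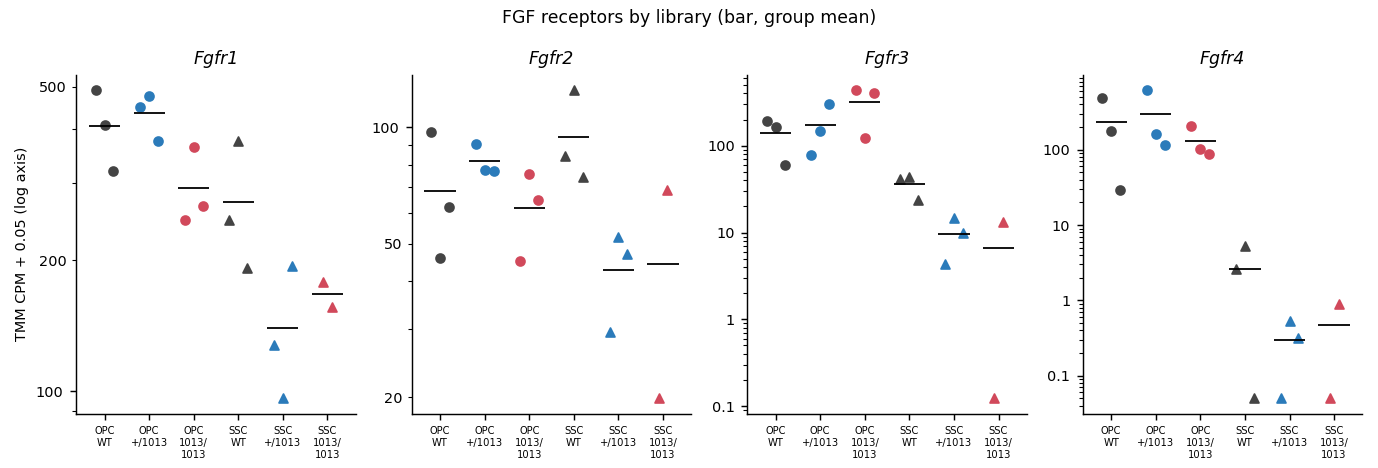
Levels of the 4 FGF receptors by library, with 1 panel per gene. The y axis is TMM CPM plus 0.05 on a log scale, circles are OPC and triangles SSC libraries, colours are genotypes and bars are group means (3 libraries, 2 for 1013/1013 SSCs). Fgfr3 and Fgfr4 show the widest gap between OPCs and SSCs, and SSC libraries at 0 sit at the bottom of the Fgfr4 panel.

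Some markers of other cell types are set beside these receptors. They are Col2a1, the main cartilage collagen, and Pax7, Myf5 and Myod1, the transcription factors of muscle satellite cells and myoblasts. They belong to lists of 8 chondrocyte and 8 muscle markers and were singled out after their values were seen. The OPC library with the highest Fgfr4 (623 CPM, +/1013 replicate 1) also had the highest sum of Pax7, Myf5 and Myod1 (158 CPM), and the one with the lowest Fgfr4 (29.5 CPM, WT replicate 3) had the lowest sum (13.3 CPM). Over SSC libraries the sum of these 3 genes was 0 to 4.12 CPM, with the highest value in the library with the highest Fgfr4. The whole muscle list reached 1 CPM for 8 of 8 markers in WT OPCs and summed to 272 to 465 CPM there, and to 3.66 to 34.1 CPM in WT SSCs, where Pax7 and Myf5 stayed under 1 CPM. It summed to 56.9 to 348 CPM over mutant OPCs and 10.9 to 126 CPM over mutant SSCs. Over OPC libraries the whole list did not run in the order of Fgfr4: it was 272 CPM in the library with the lowest Fgfr4, highest (465 CPM) in WT replicate 2 with 179 CPM of Fgfr4, and lowest (56.9 CPM) in 1013/1013 replicate 3 with 88.7 CPM of Fgfr4. The OPC library with the highest Fgfr3 (439 CPM, 1013/1013 replicate 1) also held the most Col2a1 (69882 CPM). The one with the lowest Fgfr3 held 12405 CPM of Col2a1, while the lowest Col2a1 (9569 CPM) was in +/1013 replicate 1, with 78.4 CPM of Fgfr3. WT SSCs held 3339, 540 and 447 CPM of Col2a1, where the highest Fgfr3 was in replicate 2, and mutant SSCs held 3.5 to 104 CPM. The whole chondrocyte list, 8 of 8 markers detected in OPCs of each genotype, summed to 18066 to 52093 CPM in WT, 15581 to 70689 CPM in +/1013 and 35673 to 99518 CPM in 1013/1013 OPCs. Its highest sum was in the OPC library with the highest Fgfr3, and its lowest in +/1013 replicate 1. In SSCs it summed to 3336 to 21174 CPM, with Comp, which also marks tendon, alone giving 3286 to 20924 CPM. In bulk samples, fewer cells of a type and less RNA per cell cannot be told apart, and the part of these markers in the receptor results was not tested.

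**Figure D2:**
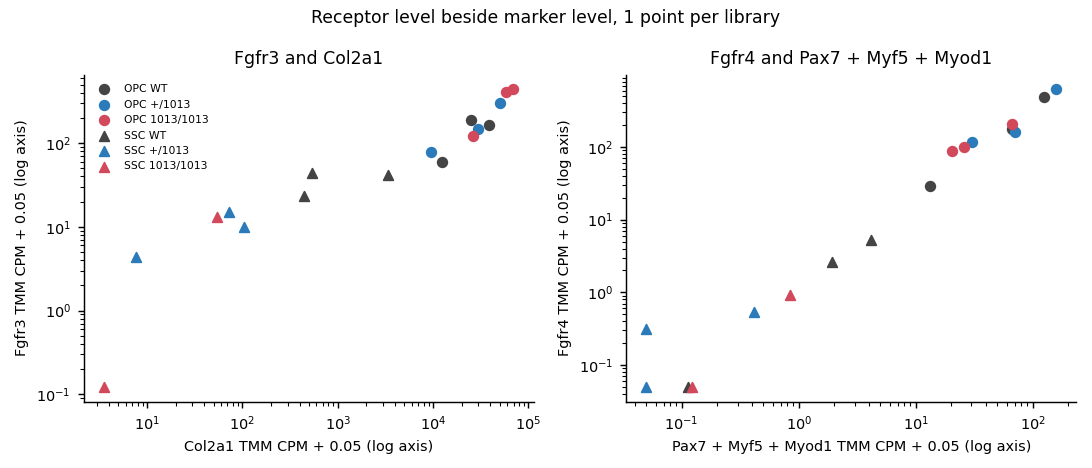
Fgfr3 against Col2a1 (left) and Fgfr4 against the sum of Pax7, Myf5 and Myod1 (right), with 1 point per library. All axes are TMM CPM plus 0.05 on a log scale, circles are OPC and triangles SSC libraries, and colours are genotypes. In both panels the receptor and the marker level run from the SSC libraries at the lower left to the OPC libraries at the upper right.

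Of the ligands, Fgf1 had the smallest difference between the cell types in WT. It read 18.1, 28.4 and 11.8 CPM in WT OPCs, 23.7, 9.29 and 14.4 CPM in WT SSCs, 8.18 to 16.9 CPM in +/1013 SSCs and 5.66 and 9.55 CPM in 1013/1013 SSCs, with 10.4 to 30.1 CPM over the 6 mutant OPC libraries. Fgf2 was scarce in OPCs. It read 1.94, 1.28 and 0.728 CPM in WT OPCs, 4.27, 2.16 and 3.06 CPM in +/1013 OPCs and 3.61, 1.80 and 2.75 CPM in 1013/1013 OPCs. All 3 +/1013 OPC libraries were above the WT ones. In SSCs Fgf2 read 15.6, 12.1 and 10.8 CPM in WT, 6.15, 9.67 and 11.6 CPM in +/1013 and 11.1 and 10.4 CPM in 1013/1013, each above all OPC libraries. Fgf2 shares 13.2% of its 6782 exon bases with other genes, mainly 640 bases with the antisense gene Nudt6, and Fgfr3 shares 13.9% of 7158 bases with an opposite-strand transcript. The library kit does not mark strand, so reads from the shared bases cannot be assigned.

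Fgf7 and Fgf18, like Fgf2, were higher in every SSC than in every OPC library, whereas Fgf9 was not. Fgf7 read 4.06, 1.82 and 0 CPM in WT OPCs and at most 3.83 CPM in any mutant OPC library. In SSCs it read 20.7, 24.8 and 17.1 CPM in WT, 60.9, 64.6 and 53.1 CPM in +/1013 and 49.9 and 44 CPM in 1013/1013. The 5 mutant SSC libraries all lay above the 3 WT SSC libraries, the highest of which reached 24.8 CPM. Fgf18 read 1.24, 2.32 and 0.582 CPM in WT OPCs and 0.775 to 2.77 CPM over mutant OPCs. In SSCs it read 17.9, 23.1 and 14.7 CPM in WT, 39.6, 29.1 and 26.5 CPM in +/1013 and 23.7 and 25.7 CPM in 1013/1013. Mutant SSCs were again above WT SSCs in every library, although the lowest 1013/1013 value, 23.7 CPM, was close to the highest WT value. Fgf9 read 1.07 to 3.34 CPM over all OPC libraries. It read 48.2, 23.9 and 21.2 CPM in WT SSCs, 14.8, 52.5 and 18.8 CPM in +/1013 SSCs, and 0 and 62.5 CPM in 1013/1013 SSCs. The 0 was in 1013/1013 SSC replicate 1 and allows up to 3 counts, or 0.0679 CPM before TMM scaling, below every OPC library, so the 1013/1013 SSC group spanned the whole range of the gene.

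**Figure D3:**
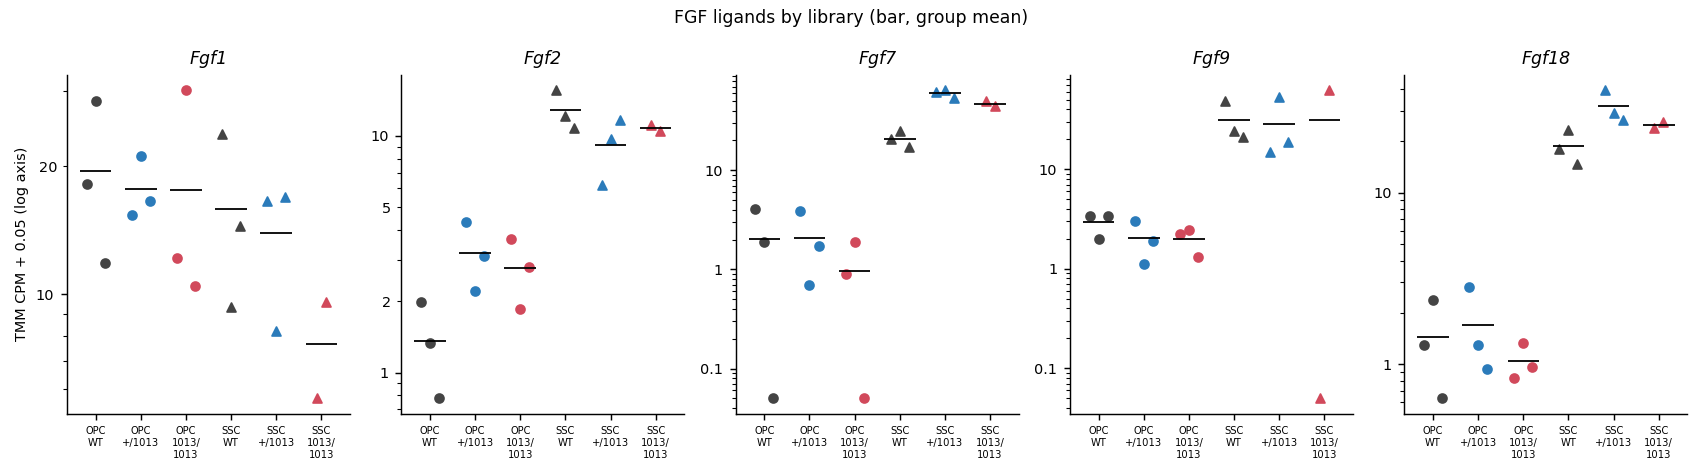
Levels of the 5 FGF ligands by library, with 1 panel per gene. The y axis is TMM CPM plus 0.05 on a log scale, circles are OPC and triangles SSC libraries, colours are genotypes and bars are group means. Fgf2, Fgf7 and Fgf18 lie higher in all SSC libraries than in any OPC library, and Fgf7 lies higher in mutant than in WT SSCs.

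To compare genes with one another, CPM was divided by the length of a gene's merged exons in kilobases. In WT OPCs the mean levels per kilobase ran Fgfr4 66.1 ± 67 (SD, n = 3), Fgfr1 41.2 ± 8.65, Fgfr3 19.4 ± 9.74, Fgfr2 6.62 ± 2.53 and Fgf1 3.56 ± 1.54 CPM per kb, with the other 4 ligands at 0.194 to 1.16. Neighbours overlapped in this order except Fgfr1 with Fgfr3 and Fgf1 with Fgf18. In WT SSCs the order was Fgfr1 27.5 ± 9.54, Fgf18 15.7 ± 3.56, Fgfr2 9.17 ± 2.6, Fgf9 6.68 ± 3.2, Fgf7 6.43 ± 1.19, Fgfr3 5.06 ± 1.53, Fgf1 2.89 ± 1.33, Fgf2 1.89 ± 0.368 and Fgfr4 0.728 ± 0.733 CPM per kb. There Fgf18 was separate from Fgfr2 and Fgf2 from Fgfr4, and the remaining neighbours overlapped. In +/1013 SSCs Fgf18 (26.7 ± 5.88) and Fgf7 (18.3 ± 1.81) came first, ahead of Fgfr1 (14.1 ± 5.05 CPM per kb), which overlapped Fgf7. In 1013/1013 SSCs (n = 2) Fgf18 (20.8 ± 1.16) and Fgfr1 (16.9 ± 1.57) were followed by Fgf7 (14.5 ± 1.3 CPM per kb) without overlap between these neighbours. In 1013/1013 OPCs Fgfr3, at 44.9 ± 24.3 CPM per kb, stood first, overlapping Fgfr4 and Fgfr1. Per kilobase, Fgfr1 made up 22.1% to 58.8% of the summed receptor level in WT OPC libraries and 63% to 65.9% in WT SSC libraries, and Fgfr4 15.1% to 61.9% and 0% to 2.54%. Among the 5 ligands, Fgf1 made up 50.1% to 62.5% of the sum in WT OPCs and Fgf18 39.3% to 54.5% in WT SSCs.

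The first comparison asked how SSCs differed from OPCs of the same genotype. SSCs of each genotype held more Fgf2 and Fgf18 and less Fgfr4 than OPCs, and Fgf7 and Fgfr3 passed the test in both mutants as well. Calls here and in the later comparisons required a change of 1.5-fold or more and an adjusted p (Benjamini-Hochberg, over all genes in the fit) below 0.05 in edgeR's quasi-likelihood test. In WT, 2 members were called higher in SSCs, against 5.55% of 20238 genes tested, and 1 lower, against 5.86%. Fgf18 was 13.3-fold higher (log2 3.73, SE 0.53, adjusted p = 6.3e-04) and Fgf2 9.61-fold higher (log2 3.26, SE 0.47, adjusted p = 7.7e-04), while Fgfr4 was 91.6-fold lower (log2 -6.52, SE 1.72, adjusted p = 0.0258). Fgf7 (log2 3.39, SE 1.31) and Fgf9 (log2 3.42, SE 1.37) did not overlap between the cell types but had adjusted p of 0.114 and 0.129. The share of all genes without overlap was not counted for SSCs against OPCs. The separations given here and with the levels above are therefore descriptions only. In WT, 26.7% of all genes had an unadjusted p under 0.05 in this comparison. Fgfr3 (log2 -1.95, SE 1.03) had an adjusted p of 0.243. The medians over all genes were 0.17, 0.00 and -0.20 on the log2 scale in WT, +/1013 and 1013/1013. The Fgfr4 call in WT was lost without OPC replicate 1 (log2 -5.35, adjusted p = 0.0525), SSC replicate 1 (-6.51, 0.0942) or SSC replicate 2 (-7.53, 0.0572), and when only the 2 groups entered the fit (0.0627). The Fgf2 and Fgf18 calls in WT held in all 14 alternatives. Fgf7 and Fgf9 were called higher in WT SSCs by DESeq2 (adjusted p = 0.0322 and 0.0262). A bias-adjusted quasi-likelihood fit called both as well (0.0136 and 0.0499).

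In +/1013, 3 members were called higher in SSCs, against 6.44% of genes, and 3 lower, against 6.02%. They were Fgf18 (log2 4.28, SE 0.54, adjusted p = 1.8e-04), Fgf7 (4.86, SE 1.40, 0.0361) and Fgf2 (1.53, SE 0.44, 0.0376), and Fgfr1 (-1.64, SE 0.30, 0.00257), Fgfr4 (-10.26, SE 2.05, 0.00501) and Fgfr3 (-4.20, SE 1.14, 0.0273). Fgf9 (3.86, SE 1.40, 0.0903) was not called, but DESeq2 (0.00894) and the bias-adjusted fit (0.033) called it higher. Fgfr1, Fgfr4 and Fgf18 held without any 1 library. Fgf7 was lost without any 1 of the 6 libraries (adjusted p from 0.0521 to 0.121). Fgfr3 was lost without OPC replicate 3 (0.0847) or SSC replicate 1, 2 or 3 (0.106, 0.0641 and 0.0835), and Fgf2 without OPC replicate 2 or 3 (0.138 and 0.111) or SSC replicate 2 or 3 (0.092 and 0.114), with no filter (0.0858) or with only the 2 groups in the fit (0.0551).

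In 1013/1013, 3 members were called higher, against 6.94% of genes, and 2 lower, against 6.12%. Fgf18 (log2 4.64, SE 0.57, adjusted p = 1.7e-04), Fgf7 (5.70, SE 1.5, 0.0238) and Fgf2 (1.98, SE 0.48, 0.0161) were higher in SSCs, and Fgfr3 (-5.62, SE 1.46, 0.0227) and Fgfr4 (-8.27, SE 2.28, 0.0297) were lower. Fgf9 (4.0, SE 1.47, 0.092) was not called, but DESeq2 (0.0158) and the bias-adjusted fit (0.0336) called it higher. With 2 SSC libraries the Fgf7, Fgf2 and Fgfr4 calls turned on single libraries. Fgf18 was called in all 13 alternatives, and Fgfr3 held without any 1 library. Without SSC replicate 1, which stood apart, Fgf7 (0.0681), Fgf2 (0.0764) and Fgfr4 (0.177) were lost and Fgf9 was called higher (log2 5.0, adjusted p = 9.1e-04). Without SSC replicate 2 the sign of Fgf9 turned (log2 -9.89, adjusted p = 0.0015) and Fgfr2 was called lower (-1.59, 0.0351). Without OPC replicate 1, Fgf7 (0.0693) and Fgfr4 (0.0511) were lost. With only the 2 groups in the fit, Fgfr3 (0.198), Fgfr4 (0.0818), Fgf2 (0.128) and Fgf7 (0.129) were lost. Leaving out any 1 of the 3 libraries with high leukocyte markers changed no call of a member in WT or 1013/1013.

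**Figure D4:**
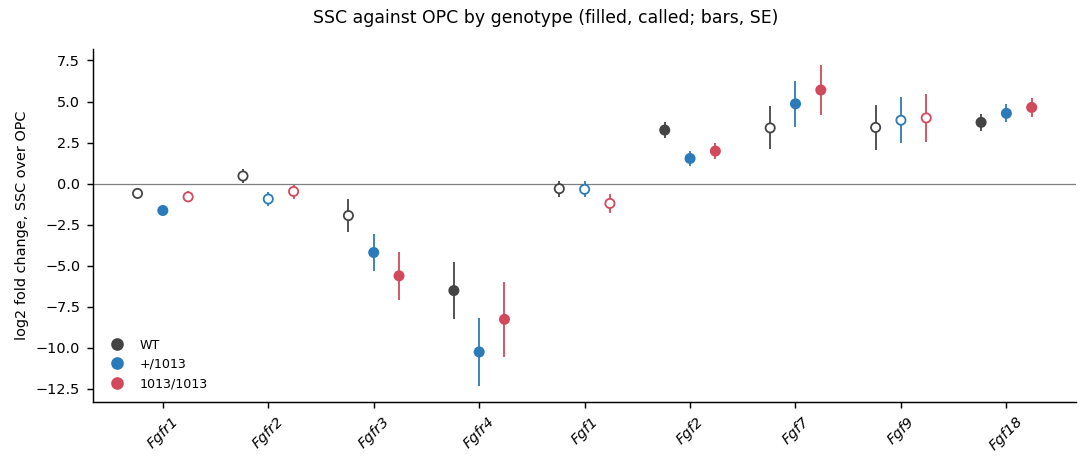
Log2 fold change of SSCs over OPCs for the 9 members in each genotype, from the edgeR fit of 17 libraries. The y axis is the log2 fold change, bars are standard errors, and filled points were called. The ligands Fgf2, Fgf7, Fgf9 and Fgf18 lie above 0 and Fgfr3 and Fgfr4 below 0 in every genotype, and Fgf9 was called in none by this fit.

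The second comparison asked whether the Cxcr4 1013 allele changed these genes in OPCs. No member was called in either mutant by edgeR, and none by DESeq2 or at an unadjusted p under 0.05. Calls over all 16207 genes tested were 0% for +/1013 against WT (331 genes at an unadjusted p under 0.05, and 58 called by DESeq2) and 0.00617% for 1013/1013 against WT. The WT libraries are shared between these comparisons. Among members, only Fgf2 did not overlap between +/1013 and WT (log2 1.26, SE 0.58, adjusted p = 1), 1 of 9 against 5.26% of genes, and none of the 9 was without overlap between 1013/1013 and WT, against 7.68%. Fgfr3 was 322 ± 174 CPM in 1013/1013 and 139 ± 69.7 CPM in WT OPCs (SD, n = 3 each), with log2 1.21, SE 0.66 and adjusted p = 1. All 8 chondrocyte markers had positive log2 fold changes in that comparison, with a median of 1.02, and none was called. Fgfr4 and Fgf7 had standard errors of 0.94 and 1.91 to 1.93, so these libraries could not show changes of a few fold in them. In simulated counts for 1013/1013 against WT OPCs, edgeR recovered 4% of 2-fold and 34% of 4-fold changes. The absence of calls is thus weak evidence for the other members too. Between 1013/1013 and +/1013 OPCs, where 0% of genes were called (513 at an unadjusted p under 0.05, 59 by DESeq2), Fgfr1 (log2 -0.57, SE 0.23, adjusted p = 0.999) and Fgfr2 (-0.40, SE 0.29, 0.999) were lower in every 1013/1013 library than in any +/1013 library, where 7.32% of all genes did not overlap. Fgfr1 was the only member at an unadjusted p under 0.05.

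In SSCs no member passed the test in either mutant. In +/1013 SSCs 0 of 9 members were called, against 0.0736% of 17659 genes, with 4 members at an unadjusted p under 0.05 (Fgf7, Fgfr1, Fgfr2 and Fgf18) and 2 called by DESeq2 (Fgf7 and Fgfr1). Over all genes, 17.3% had an unadjusted p under 0.05 and DESeq2 called 1302. Fgf7 was 59.5 ± 5.87 CPM in +/1013 and 20.9 ± 3.88 CPM in WT SSCs (SD, n = 3 each), a 2.84-fold difference (log2 1.51, SE 0.20) with an adjusted p of 0.0505. It was called under 3 of 15 alternatives, DESeq2 (6.1e-08), upper-quartile scaling (0.0492) and a filter of 10 counts in every library (0.0364). Fgf18 differed by log2 0.77 (SE 0.25, adjusted p = 0.2), Fgfr1 by -0.97 (SE 0.33, 0.206), Fgfr2 by -1.15 (SE 0.45, 0.254) and Fgfr3 by -1.91 (SE 1.22, 0.48). Of the 9 members, 2 lay higher and 2 lower than WT without overlap, at a background of 31.2% of all genes.

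In 1013/1013 SSCs 0 of 9 members and 0% of all genes were called by edgeR (3224 genes at an unadjusted p under 0.05), while DESeq2 called 1708 genes and 1 member, Fgf7. Fgf7 was 47 ± 4.21 CPM (SD, n = 2), 2.3-fold above WT (log2 1.20, SE 0.21, adjusted p = 0.0843). Fgf18 differed by log2 0.44 (SE 0.28, 0.407), Fgfr1 by -0.67 (SE 0.37, 0.354), Fgfr2 by -1.08 (SE 0.51, 0.308) and Fgfr3 by -2.47 (SE 1.46, 0.383). These 5 members did not overlap with WT, 2 higher and 3 lower, where 40.6% of all genes did not. Without SSC replicate 2, which leaves only the library that stood apart and takes the spread from the other groups, 2931 of all genes and 4 members were called: Fgf7 (1.25, adjusted p = 0.0196), Fgfr2 (-2.26, 0.0229), Fgfr3 (-8.91, 0.00541) and Fgf9 (-13.85, 0.00772). The Fgf9 fold is against a library at 0, so its size depends on the prior count of the fit. Without replicate 1 none was. All 4 receptors had negative log2 fold changes in both mutants, with medians of -1.53 and -1.78, beside -0.11 and -0.23 for all genes. The WT SSC libraries are shared between these comparisons. Fgfr4 was scarce in SSCs, with 0 to 343 counts in WT, 0 to 25 in +/1013 and 0 to 46 in 1013/1013. It overlapped with WT in both mutants (log2 -3.37, SE 2.47, and -2.57, SE 2.80). Some marker lists had negative medians in the same comparisons and others positive ones. Negative medians were -1.31 and -0.92 for the osteoblast list, -3.75 and -3.00 for the chondrocyte list (7 of 8 markers negative in both) and -4.61 and -1.93 for the leukocyte list (10 and 9 of 10 negative). The erythroid (-0.96 and -1.05), mural (-0.84 and -0.61) and gated-out (-0.56 and -3.26) lists were also negative. Medians were positive for the endothelial (0.74 and 1.52), adipocyte (1.40 and 1.12), muscle (0.11 and 0.50) and SSC gate (0.13 and 0.08) lists. The part of these markers in the receptor values was not tested. Between 1013/1013 and +/1013 SSCs no member was called, at 0% of genes (977 at an unadjusted p under 0.05, 169 by DESeq2), and 2 members, Fgfr3 and Fgf9, were called without 1013/1013 replicate 2 (adjusted p = 0.0113 and 0.00933), where 1812 of all genes were.

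**Figure D5:**
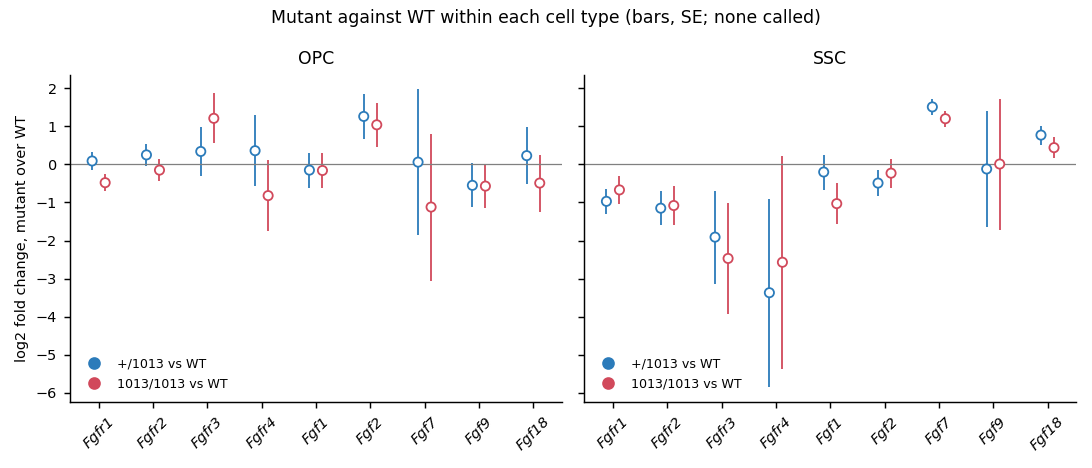
Log2 fold change of mutant over WT for the 9 members in OPCs (left) and SSCs (right), from an edgeR fit of each cell type. The y axis is the log2 fold change, bars are standard errors, and open points were not called. Fgf7 and Fgf18 lie above 0 and the 4 receptors below 0 in SSCs of both mutants, while OPC values scatter around 0.

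The difference of the genotype effect between SSCs and OPCs was tested directly in the fit of all 17 libraries. No member was called, against 0.084% of genes for +/1013 and 0.153% for 1013/1013. Over all genes, 10.6% and 15% had an unadjusted p under 0.05, and DESeq2 called 437 and 1142 genes. For +/1013, 3 members had an unadjusted p under 0.05 and none was called by DESeq2: Fgf2 (log2 -1.74, SE 0.62, adjusted p = 0.406), Fgfr1 (-1.04, SE 0.41, 0.424) and Fgfr2 (-1.39, SE 0.57, 0.43). For 1013/1013 only Fgfr3 did (-3.67, SE 1.59, 0.31), and without SSC replicate 2 Fgfr3, Fgfr2 and Fgf9 were called (adjusted p = 0.00204, 0.0383 and 5.4e-04), as were 1960 of all genes. The Fgf7 difference was 1.47 (SE 1.70, adjusted p = 0.856) for +/1013 and 2.30 (SE 1.79, 0.566) for 1013/1013.

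Other genes of the pathway, 73 matched of 74 listed, were tested in the same fits. Between WT SSCs and WT OPCs 4 of 66 tested were called higher and 5 lower, where 5.55% and 5.86% of all genes were. Fgf10, a mesenchymal ligand of Fgfr2, had no count in any OPC library and 2.55 to 4.09 CPM in WT SSCs, at least 54.9-fold above a floor of 3 counts per library. It was at least 107-fold higher in +/1013 and 83.7-fold higher in 1013/1013 SSCs by the same floor. Sulf2, a sulfatase that trims heparan sulfate, was 155 ± 22.6 CPM in WT SSCs and 18.4 ± 10.2 CPM in WT OPCs (log2 3.06, SE 0.63, adjusted p = 0.00626). Etv1, an ETS factor, was also higher in SSCs (log2 1.84, SE 0.42, 0.0118). Of 11 heparan sulfate proteoglycans tested, 1 was higher and 3 were lower in WT SSCs. The syndecan Sdc3 was 146 ± 17.6 CPM in WT SSCs against 768 ± 97.8 CPM in WT OPCs (log2 -2.41, SE 0.35, 7.8e-04), and the glypican Gpc1 205 ± 61.5 against 760 ± 140 CPM (-1.91, SE 0.32, 0.00184). Of 13 heparan sulfate enzymes 1 was higher and 2 were lower, among them the 6-O-sulfotransferase Hs6st2 (0.822 ± 0.863 against 23.9 ± 14.3 CPM, log2 -4.87, SE 0.95, 0.00665). None of the 10 adaptors and none of the 9 feedback inhibitors tested was called in WT. In the mutants the adaptors Frs2 (log2 -0.90 in +/1013 and -1.22 in 1013/1013) and Gab1 (-1.36 and -1.74) were lower in SSCs and Shc1 was higher in +/1013 SSCs (0.67), named here after their values were seen, and no feedback inhibitor was called.

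In the mutants the pathway counts were 5 higher and 11 lower in +/1013 and 5 higher and 8 lower in 1013/1013, of 66 tested each. The shares of all genes were 6.44% higher and 6.02% lower in +/1013, and 6.94% and 6.12% in 1013/1013. Sdc3, Gpc1 and Hs6st2 were again lower and Fgf10 was again higher in SSCs of both. Hs6st2 had no count in +/1013 SSCs and 14.4 to 54.8 CPM in +/1013 OPCs, at least 506-fold lower by the floor. Sulf2 was higher in +/1013 SSCs (log2 2.89, SE 0.62, adjusted p = 0.0079). The adhesion protein Flrt3, which binds FGF receptors, was lower in +/1013 SSCs (-2.60, SE 0.67, 0.0209). Gpc3 (4.77, SE 0.92, 0.00444) and Etv1 (2.79, SE 0.46, 0.00147) were higher in 1013/1013 SSCs. Etv1 was also called higher in +/1013, at a mean of 20.2 CPM in SSCs against 5.25 CPM in OPCs. With at most the 6 largest changes named per comparison, a gene not named for a genotype may still have been called there.

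No pathway gene was called between genotypes in OPCs (59 tested) or SSCs (63 tested). At an unadjusted p under 0.05, 3 of 59 were found for each mutant in OPCs, and 10 and 9 of 63 for +/1013 and 1013/1013 in SSCs. The shares of all genes were 2.04% and 3.38% in OPCs and 17.3% and 18.3% in SSCs, so the SSC counts did not exceed the background. Spry2, a feedback inhibitor, read 1.59 to 2.84 CPM in WT SSCs, 5.29 to 8.93 CPM in +/1013 and 7.48 to 17.3 CPM in 1013/1013 SSCs. It did not overlap with WT but missed the threshold (log2 1.65, SE 0.51, adjusted p = 0.188, and 2.58, SE 0.56, 0.11). Of all genes tested, 31.2% in +/1013 and 40.6% in 1013/1013 SSCs did not overlap with WT. None of the other 5 reporter genes lay above WT without overlap in SSCs, while Etv4 and Etv5 lay below every WT library in both mutants. Etv4 read 1.79 to 4.42 CPM in WT, 0.804 to 1.61 CPM in +/1013 and 1.04 to 1.68 CPM in 1013/1013 SSCs. Etv5 read 23.8 to 28.9, 18.7 to 23.5 and 14.9 to 20.8 CPM in the same order. In 1013/1013 SSCs Spry1 differed from WT by log2 0.02 (SE 0.36), Spry4 by 0.35 (SE 0.41), Dusp6 by -0.20 (SE 0.66), Etv4 by -0.98 (SE 0.80) and Etv5 by -0.53 (SE 0.25), with adjusted p from 0.31 to 0.983. In +/1013 SSCs they ranged from -1.06 (Etv4) to -0.15 (Spry4). In OPCs the 6 genes had differences of -0.84 (Spry1, 1013/1013) to 0.46 (Spry1, +/1013), each with an adjusted p of 1.

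Likeness to each member was measured over the 17 libraries as the root mean square difference of log2(CPM + 1) values, each gene centred on its own mean, among 14496 genes. The nearest to Fgfr4 were Cdh15, the cadherin of muscle satellite cells (0.775), Erfe (0.794) and Chrdl2 (0.893), where Fgfr4 itself varied by 3.43 about its mean. For Fgfr3 they were Susd5 (0.494), Gramd2 (0.538) and Trpv4 (0.593), with Fgfr3 varying by 2.31. Fgf7 was most like Gsn (0.445), Hnrnpa3 (0.498) and C1qtnf7 (0.507), and Fgf18 most like Ptma (0.333), Mettl7a1 (0.359) and Nbl1 (0.367). Fgf2 stood nearest to Pamr1 (0.316), Tle6 (0.322) and Dapk1 (0.346), and Fgf9 nearest to Npy (0.671), Serpina3m (0.782) and Mstn (0.788). Fgfr1 was closest to Kirrel, Zbtb7c and Pcdhgc3 (0.273 to 0.286), Fgfr2 to Jph2, Ubr1 and Plcg1 (0.294 to 0.332) and Fgf1 to Cerk, Sssca1 and Arhgap42 (0.372 to 0.388), but these 3 members varied by only 0.585 to 0.676. Genes that share libraries also share their depth and cell mixture, so these distances are descriptions.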

How the data were processed

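Total RNA of sorted OPC and SSC pools was made into cDNA with the SMART-Seq v4 kit and into Nextera XT libraries by the authors, who sequenced paired ends, checked reads with FastQC, removed reads shorter than 50 bp, used STAR for alignment against mm10, and obtained gene counts from HTSeq. The deposited values are raw whole-number counts per gene, with no normalization. Versions, annotation release and counting settings are not given in the sources used here. HTSeq's special counters were left out of library sizes and tests, and reads on no gene were 1.15% to 4.16% of a library. Of 55335 identifiers, 55154 matched GENCODE M21.

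The tools were edgeR 4.0.16, DESeq2 1.42.0 and limma 3.58.1, under R 4.3.3. Each cell type had one edgeR quasi-likelihood fit (filterByExpr, TMM, legacy = TRUE, no covariates) for its genotype comparisons, and the 17 libraries had another for SSCs against OPCs and for the difference of genotype effects. Benjamini-Hochberg adjustment ran over all genes tested. Calls needed a 1.5-fold change or more with an adjusted p under 0.05, and the standard error is the log2 fold change over the square root of F. The SSC libraries have higher TMM factors (1.06 to 1.41) than the OPC libraries (0.739 to 1.02), and type I collagen took 16.1% to 38.7% of OPC counts. The fits were tested on simulated data: with 15551 to 19042 genes, edgeR recovered 3% to 4% of 2-fold and 29% to 34% of 4-fold changes, with 0 to 2 false calls, and DESeq2 7% to 12% and 43% to 49%, with 31 to 98 false calls.

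The members and gene lists were chosen with earlier results of these data known. Genes named are the 9 members, pathway genes called in a comparison (at most the 6 largest changes), 6 reporters of FGF signalling in the genotype comparisons, and the 3 genes most like each member. One pathway gene, Spry3, had no identifier match. Nothing in the labels says which mice a library came from, so p-values measure the spread between these pools, and intervals from counts cover counting error only. Alternatives are DESeq2, bias-adjusted quasi-likelihood, other normalizations and filters, a replicate block, fits of other sample sets, no fold threshold, and leaving out each library.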

Additional observations from a re-analysis of the deposited data

How the results depend on the processing

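Member calls were recomputed under each alternative. Over the 11 comparisons, of 796 member log2 fold changes under alternatives that kept all libraries, 759 kept their direction and side of the threshold, 18 gained a call, 7 lost it and 12 changed sign. Of 666 values with 1 library left out, 587 were the same, 8 gained and 22 lost a call, and 49 changed sign. The cause was not tested in any of these.

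The number of members called for +/1013 against WT in SSCs was 0 and became 2 with DESeq2, 1 with upper-quartile normalization and 1 with the filter of 10 counts in every library. For 1013/1013 against WT in SSCs it was 0 and became 1 with DESeq2, and 0 to 4 with 1 library left out. For 1013/1013 against +/1013 in SSCs it was 0 to 2 with 1 library left out, and for the difference of the 1013/1013 effect between cell types 0 to 3. For SSCs against OPCs in WT, 3 calls became 5 with DESeq2 and 5 with the bias-adjusted fit, and 2 to 3 with 1 library left out. In +/1013, 6 calls became 3 under the 10-count filter, which drops members from the test, and 3 to 5 with 1 library left out. In 1013/1013, 5 calls became 2 under that filter, 1 when only the compared groups, with 2 SSC libraries, entered the fit, and 3 to 7 with 1 library left out.

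The replicate block used replicate numbers that do not pair the samples: over same-numbered samples, deviations from group means correlated from -0.396 to 0.424 in 9 OPC pairs and from -0.173 to 0.148 in 7 SSC pairs. For Fgf9 in 1013/1013 against WT SSCs, 0.01 on the log2 scale, the sign turned under the block (-1.80), DESeq2 (-0.05), RLE normalization (-0.05) and no filter (-0.00). For 1013/1013 against +/1013, the block turned Fgf9 in OPCs (0.09) and Fgfr2 (-0.13), Fgfr4 (-0.31) and Fgf9 (-1.06) in SSCs, and Fgf1 in OPCs was 0.01 with DESeq2, RLE normalization or only the groups compared, against -0.01. The difference of the +/1013 effect for Fgf1, -0.04, became 0.03 with upper-quartile normalization. Ranges over left-out libraries for the members whose sign turned were as follows on the log2 scale. For +/1013 against WT in OPCs, Fgf1 ranged from -0.41 to 0.24, Fgf18 from -0.37 to 0.84, Fgf7 from -0.74 to 1.18, Fgfr1 from -0.06 to 0.25, Fgfr3 from -0.31 to 0.70 and Fgfr4 from -0.74 to 1.54. For 1013/1013 against WT in OPCs, Fgf1 ranged from -0.79 to 0.23, Fgf18 from -0.85 to 0.12, Fgfr2 from -0.36 to 0.19 and Fgfr4 from -1.35 to 0.33. In SSCs, Fgf1 ranged from -0.47 to 0.20 and Fgf9 from -0.90 to 0.33 for +/1013 against WT, and Fgf9 from -13.85 to 1.01 for 1013/1013 against WT. For SSCs against OPCs, Fgf1 ranged from -0.73 to 0.08 in WT, and in 1013/1013 Fgf9 ranged from -9.89 to 5.0 and Fgfr2 from -1.59 to 0.15. For 1013/1013 against +/1013 in OPCs, Fgf1 ranged from -0.66 to 0.25, Fgf2 from -0.47 to 0.05 and Fgf9 from -0.32 to 0.40, and in SSCs Fgf9 from -13.73 to 1.13, Fgfr2 from -1.10 to 0.69, Fgfr3 from -7.00 to 0.44 and Fgfr4 from -6.88 to 1.79. For the difference of genotype effects between cell types, Fgf1 ranged from -0.45 to 0.37, Fgf9 from -0.34 to 0.90 and Fgf18 from -0.08 to 1.13 with +/1013, and Fgfr1 from -0.40 to 0.10 and Fgf9 from -13.32 to 1.58 with 1013/1013.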
